A study of Triticum aestivum with 8 samples.

Results

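Leaves of the bread wheat (Triticum aestivum) cultivar WL711 were compared between plants left without water and plants watered throughout. The comparison rests on 4 of the 8 arrays of the study, chosen by their labels: WL711 drought, with 2 arrays, and WL711 control, with 2 arrays. Both groups share the cultivar, the organ and a labelled age of 48 days, and water was withheld from day 27 in the drought group, which makes 21 days without water. The replicates are labelled as biological, and whether 1 array holds 1 plant or a pool is not given in the sources used here. The other 4 arrays hold the same pair of treatments in the cultivar C306 and serve here for the shared estimate of spread and for the test of a difference between the cultivars.

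When a wheat leaf loses water, abscisic acid accumulates, stomata close, and genes for dehydrins, late embryogenesis abundant (LEA) proteins and chaperones are typically switched on, while growth and its hormone gibberellin are held back. Leaves under such stress also remobilise stored carbohydrates such as fructans and starch, and remove reactive oxygen with catalases, peroxiredoxins and glutathione transferases. WL711 is generally described as a drought-sensitive cultivar and C306 as a tolerant one.

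The deposited values are log2 values from RMA (robust multi-array average), 1 per probe set, a probe set being a group of short probes that reads 1 transcript or several near-identical ones. Each probe set had been centred on its own median over the 8 arrays, so a value below 0 is a value under that median and carries no level. Presence of leaf transcripts could therefore not be read, and the labelled organ could not be checked by marker levels. Wheat carries 3 near-identical gene copies, and a probe set may read more than 1 of them. In whole leaves, fewer cells of a type and less RNA per cell cannot be told apart.

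Quality measures differed between arrays, in some cases between the 2 groups and in others by a single array. The spread of the centred values, as their interquartile range, was 0.241 and 0.247 on the drought arrays, against 0.482 and 0.302 on the control arrays. The 9 hybridisation control probe sets averaged 0.082 and -0.018 on the drought arrays, against -0.87 and 0.075 on the control arrays. Low values were found on 3 of the 8 arrays, WL711 control replicate 1, C306 drought replicate 1 (-0.95) and C306 control replicate 2 (-1.02). The difference between 3′ and 5′ probe sets of actin, a measure of RNA integrity, was -0.35 and -0.022 on the drought arrays, against 0.42 and 0.27 on the control arrays. Of the other wheat transcripts read in this way, sucrose synthase and ubiquitin went as actin did. CYP86 went the other way, and for EF1a, GAPDH and G6PDH the groups overlapped. The part of these differences in the results was not tested.

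Few transcripts passed the test. Of the 61179 probe sets, 22 differed between drought and control at a limma adjusted p under 0.05, which is 0.036% of those tested. In drought leaves 10 were higher (0.0163%) and 12 were lower (0.0196%). The groups did not overlap for any of these 22, as for 43.5% of all probe sets. An unadjusted p under 0.05 was reached by 8413 probe sets (13.8%), 4407 of them higher in drought and 4006 lower. The log2 difference was at least 1 in size for 647 probe sets higher in drought (1.06%) and 206 lower (0.337%), and the arrays of the groups did not overlap for 591 (0.966%) and 188 (0.307%) of these. A difference of at least 2 was found for 101 probe sets (0.165%), 75 higher (0.123%) and 26 lower (0.0425%), of which 90 had no overlap (0.147%) and 10 passed. The median absolute change was 0.188 on the log2 scale, while replicates differed from each other by a median of 0.162 in drought and 0.243 in control. The change is a difference between means of 2 arrays. The replicate figures are differences between single arrays, so they are not directly comparable with it.

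Among the 22, the probe set with the largest decrease, Ta.17978.1.S1_at, read 0.62 and -0.17 in drought leaves, against 5.17 and 5.39 in control leaves. Both drought arrays lay far under both control arrays, and the log2 value fell by 5.06, or 33.3-fold (SE of the log2 change 0.25, limma adjusted p = 0.000982). The second among the 22, Ta.10581.1.A1_at, read -4.0 and -4.39 in drought leaves, against -0.46 and -0.89 in control leaves. It fell by 3.52, or 11.5-fold (SE 0.31, limma adjusted p = 0.0271). The annotation used here pairs neither with a gene.

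The highest increase among the 22 was that of Ta.25703.2.A1_s_at, at -1.19 and 0.18 in drought leaves, against -4.33 and -4.13 in control leaves. The drought arrays lay above both control arrays but differed from each other by more than the control arrays did. The change was 3.73 (SE 0.39, limma adjusted p = 0.0394), a 13.2-fold higher value. Ta.25703.1.A1_at, which shares the identifier stem, was higher by 1.61 and did not pass (limma adjusted p = 0.107). Ta.5139.1.S1_at read 1.11 and 1.55 in drought leaves, against -1.70 and -1.31 in control leaves, and rose by 2.84 (SE 0.24, limma adjusted p = 0.0271). Neither has a gene in this annotation.

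LOC543440 was the only 1 of the 22 with a gene, and the annotation gives it no product. Its probe set read 0.11 and -0.10 in drought leaves, against -1.55 and -1.35 in control leaves. The groups were separated by far more than the replicates of either, and the rise was 1.45 (SE 0.17, limma adjusted p = 0.0444), or 2.74-fold. The call was lost under 13 of 16 alternative settings. The other 7 increases lay between 1.43 and 1.93, and the other 10 decreases between -2.61 and -1.75, none with a gene in this annotation. Over the 22, the number of settings under which a call was lost ranged from 2, for Ta.17978.1.S1_at, to 13, with a median of 10. It was 4 for Ta.5139.1.S1_at, 6 for Ta.10581.1.A1_at and 10 of 15 for Ta.25703.2.A1_s_at. Leaving out either replicate of a C306 group gave the same WL711 result, so these settings are not all separate.

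**Figure D1:**
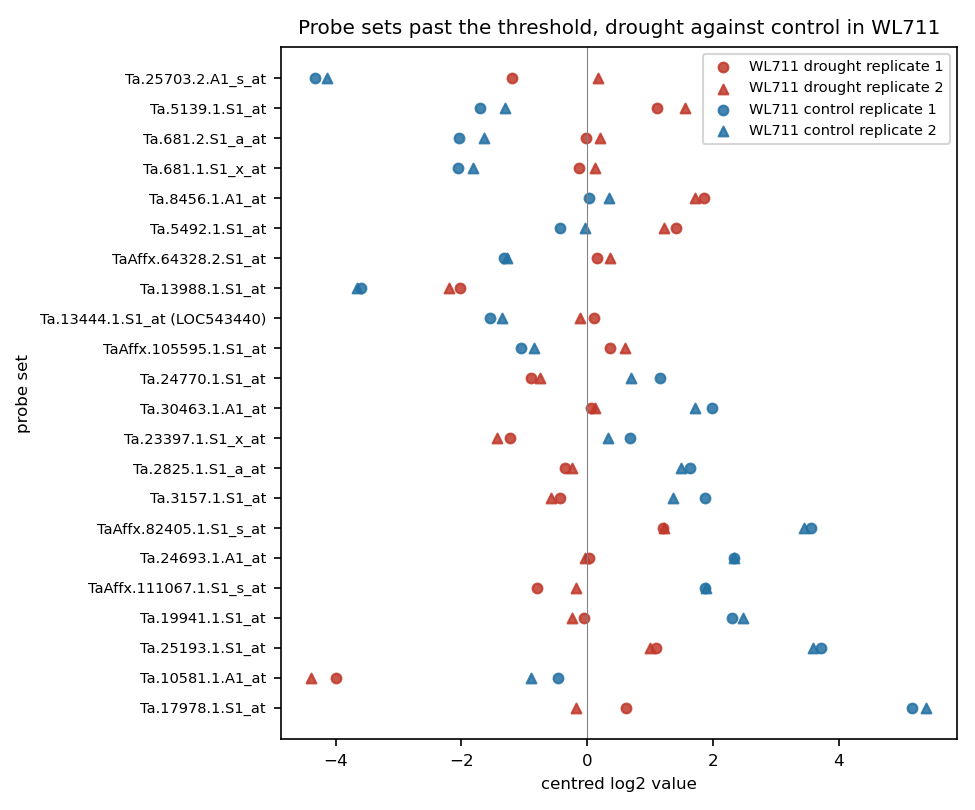
Centred log2 values (horizontal axis) of the 22 probe sets past the limma threshold (rows), with 1 symbol per WL711 array, red for drought and blue for control. In every row the 2 drought arrays lie on 1 side of the 2 control arrays, from Ta.25703.2.A1_s_at with a change of 3.73 at the top to Ta.17978.1.S1_at with -5.06 at the bottom.

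None of the 22 passed the same test in C306 leaves, where their changes ranged from -0.83 to 1.46. The share of all probe sets that passed in C306 is not given here. The lack of a pass there therefore does not by itself set the 22 apart as particular to WL711. The difference between the cultivars' drought effects passed for 11 of the 22 (limma, Benjamini-Hochberg adjusted over all probe sets), 3 with the higher effect in WL711 and 8 with the lower. Over all probe sets, 25 (0.0409%) passed that test, 6 with the higher effect in WL711 (0.00981%) and 19 with the lower (0.0311%), and 5987 (9.79%) had an unadjusted p under 0.05. The 22 were chosen by the WL711 contrast, which enters this difference, so the count is a description and not independent evidence. Ta.17978.1.S1_at changed by -5.06 in WL711 and by -0.15 in C306 (limma adjusted p of the difference = 0.00575). Ta.5139.1.S1_at changed by 2.84 in WL711 and by -0.79 in C306 (limma adjusted p of the difference = 0.0216), and LOC543440 by 1.45 and -0.78 (limma adjusted p of the difference = 0.0287). For Ta.25703.2.A1_s_at the effects were 3.73 and 1.37, and the difference did not pass (limma adjusted p = 0.214).

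Several transcripts with large differences missed the threshold. LOC543150 read -1.55 and -1.62 in drought leaves, against 3.23 and 2.14 in control leaves, which gives a change of -4.27 (SE 0.56, limma adjusted p = 0.0544). In C306 the change was 2.43, and the difference of the effects, -6.70, passed (limma adjusted p = 0.0485). The gene's other probe set stood at -0.68 in WL711. LOC543236 read 0.67 and 1.03 in drought leaves, against -0.94 and -0.60 in control leaves, a change of 1.62 (SE 0.21, limma adjusted p = 0.0540). The annotation gives neither gene a product.

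Other genes known by a LOC symbol alone had a log2 difference of at least 2 and no overlap of the arrays. They were picked out with their values known. The largest of these differences was that of LOC542773, at 5.06, which is described below. The rest were LOC542774 at 3.17, LOC780687 at 2.49, LOC543499 at 2.45, LOC542853 at 2.35, LOC606346 at 2.14 and LOC543330 at 2.02. Their limma adjusted p lay between 0.156 for LOC606346, which stood at -2.16 in C306, and 0.385 for LOC543330. LOC543330 read 3.45 and -0.12 in drought leaves, against -0.51 and -0.19 in control leaves. Its arrays were only just separated, and its difference came mainly from drought replicate 1. Besides LOC543440, LOC543236 and LOC543150, the LOC genes with the most extreme moderated t had smaller differences. LOC543463 differed by -0.78 (limma adjusted p = 0.118), and its 4 probe sets were all lower in drought leaves. LOC100037531 stood at -1.36 and LOC543248 at -1.02. For LOC543248 the change was 3.12 in C306, and the difference of -4.14 between the cultivars passed the test. LOC780672 and LOC542934 were higher by 0.80 and 0.78. Of the 669 genes of this kind, 84 were higher and 35 lower at an unadjusted p under 0.05, against 7.2% and 6.55% of all probe sets.

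Several probe sets made for 1 transcript cluster share an identifier stem, so they are repeated readings of related sequence rather than separate genes. Among 3738 stems with at least 3 probe sets, 8 had every probe set higher in drought by at least 1 without overlap of the arrays, and 2 had every probe set lower. The stems were chosen by these values, so no test applies. The largest differences were those of Ta.2789, whose 4 probe sets stood between 4.74 and 5.06, and 2 of them belong to LOC542773. The higher of these, for a gene with no product in this annotation, read 1.69 and 0.73 in drought leaves, against -5.34 and -2.36 in control leaves. The groups did not overlap, but the control arrays lay far from each other, and none of the 4 passed (limma adjusted p from 0.156 to 0.160). In C306 the 4 stood between -1.60 and -1.34. Ta.681 had 5 probe sets between 1.52 and 2.08, of which 2 passed. Ta.12102 had 3 between 2.53 and 3.22, and Ta.9449 had 4 between 1.69 and 2.69. Below the controls stood Ta.10, with 3 probe sets between -2.70 and -2.42, and Ta.5345, with 5 between -2.54 and -1.11. The 5 of Ta.5345 were between 0.19 and 1.62 in C306.

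**Figure D2:**
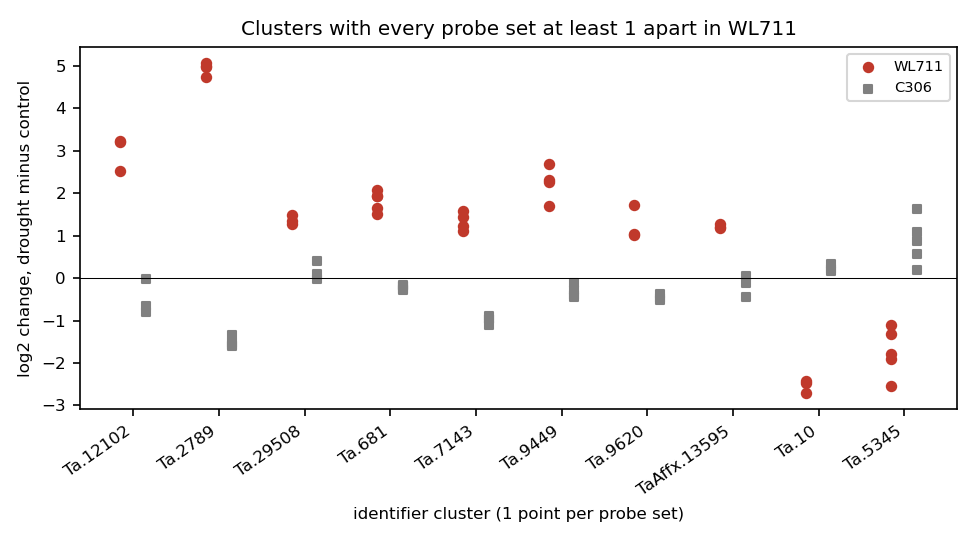
Log2 change between drought and control (vertical axis) of each probe set of the 10 identifier stems (horizontal axis) whose probe sets all differed by at least 1 in WL711, red circles for WL711 and grey squares for C306. In WL711 the points run from -2.70 in Ta.10 to 5.06 in Ta.2789, and in C306 those of Ta.5345 lie above 0.

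A gene name other than a LOC symbol was available for 102 genes. None passed the test (limma, adjusted over all probe sets). At an unadjusted p under 0.05, 9 were higher and 8 lower in drought, against 7.2% and 6.55% of all probe sets. Both drought arrays lay above both control arrays for 22 of the 102, against 21% of all probe sets, and below them for 24, against 22.4%, so these shares were near the background. Their median change was -0.017, against -0.018 over all probe sets. The genes are described below by role, with 1 probe set each, and values are given without a call. Of the 47 named genes with several probe sets, 23 had probe sets on both sides of 0.

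**Figure D3:**
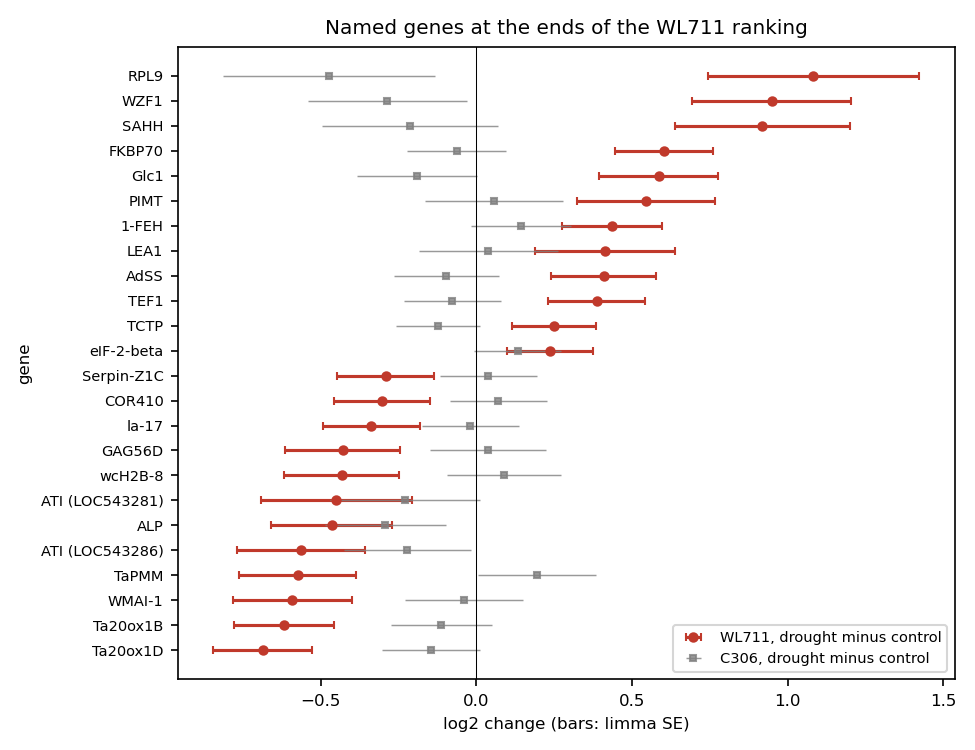
Log2 change between drought and control (horizontal axis, bars are limma SE) of the 24 named genes with the highest and lowest moderated t in WL711 whose arrays did not overlap (rows), red for WL711 and grey for C306. The WL711 changes run from -0.69 for Ta20ox1D to 1.08 for RPL9, and none passed the adjusted threshold.

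Gibberellin 20-oxidases make the precursors of the active gibberellins, the hormones of stem and leaf growth. Ta20ox1D read 0.14 and -0.038 in drought leaves, against 0.67 and 0.80 in control leaves, a change of -0.69 (SE 0.16, limma adjusted p = 0.179). Ta20ox1B read 0.057 and -0.015 in drought leaves, against 0.70 and 0.58 in control leaves, a change of -0.62 (SE 0.16, limma adjusted p = 0.205). Both were lower on both drought arrays, while Ta20ox1A stood at 0.15 with overlapping arrays. A second Ta20ox1D probe set stood at -0.32. In C306 the 3 copies had a median change of -0.11.

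Of 5 genes of the methyl cycle and of purine metabolism, 4 were above 0, with a median of 0.41. SAHH, which breaks down the S-adenosylhomocysteine left by methyl transfer, read 0.40 and 0.17 in drought leaves, against -0.82 and -0.46 in control leaves. Its change was 0.92 (SE 0.28, limma adjusted p = 0.249), and its other probe set read 0.60 and 0.42 in drought leaves, against -0.99 and -0.40 in control leaves. PIMT, which repairs damaged aspartyl residues of proteins, was higher by 0.55, and AdSS, which makes a precursor of AMP, by 0.41. APT1, which salvages adenine, stood at 0.018 and PEAMT1, a methyltransferase of choline synthesis, at -0.011.

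Among 6 translation genes, 5 were above 0, with a median of 0.23. The ribosomal protein gene RPL9 read 0.91 and 0.98 in drought leaves, against -0.42 and 0.15 in control leaves, a change of 1.08 (SE 0.34, limma adjusted p = 0.255). Drought arrays were close together and control arrays apart. The initiation factor genes eIF-2-beta and eIF4E stood at 0.24 and 0.23, and RPS29, of the small ribosomal subunit, at 0.75 with overlapping arrays and at 0.15 without control replicate 2. TaTif4B1, for initiation factor 4B, stood at -0.064. TEF1 was higher by 0.39, and TCTP, a growth-related protein found in most tissues, by 0.25.

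WZF1, a zinc finger protein and the sole member of the list of stress transcription factors, read -1.33 and -1.36 in drought leaves, against -1.95 and -2.63 in control leaves. The change was 0.95 (SE 0.26, limma adjusted p = 0.212), and it was -0.29 in C306. FKBP70, a folding helper of the peptidyl-prolyl isomerase family, read 0.23 and 0.44 in drought leaves, against -0.41 and -0.12 in control leaves, a change of 0.60 (SE 0.16, limma adjusted p = 0.206). The small heat shock protein gene hsp16.9A stood at 0.059.

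The dehydration proteins had a median of -0.099 over 5 genes, 1 above 0 and 4 below. COR410, a dehydrin associated with the plasma membrane, read -0.15 and -0.27 in drought leaves, against 0.16 and 0.033 in control leaves, a change of -0.30 (SE 0.16, limma adjusted p = 0.426). LEA1 read 0.55 and -0.051 in drought leaves, against -0.11 and -0.21 in control leaves, a change of 0.41 (SE 0.22, limma adjusted p = 0.450). The drought replicates of LEA1 differed from each other by more than the drought group differed from control. Rab15, a dehydrin, stood at -0.17, and the seed-type proteins EM and EMH2 stood at -0.094 and -0.099. The other probe sets of EMH2 stood at -0.36 and 0.39, each without overlap, so the gene has no single direction.

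Photosynthesis genes had a median of -0.00020 over 6 genes, with changes from -0.22 to 0.065. PsbO and PsbP, subunits of the oxygen-evolving complex, stood at 0.026 and 0.065, petC, of the cytochrome complex, at 0.018, and rbcl, the large subunit of Rubisco, at -0.22. Of the 28 probe sets of rbcl, 22 were below 0, and their changes ran from -0.98 to 0.36 (lowest limma adjusted p = 0.132). Without overlap of the arrays 14 were lower and 4 higher in drought, against 22.4% and 21% of all probe sets. They are repeated readings of 1 gene and not independent, so no test was made of these shares. Among enzymes of sugar phosphates, 4 of 5 were below 0 with a median of -0.27. TaPMM, phosphomannomutase, which feeds mannose into cell wall and ascorbate synthesis, read -0.025 and -0.010 in drought leaves, against 0.36 and 0.75 in control leaves, a change of -0.57 (SE 0.19, limma adjusted p = 0.270). Pgk-1, phosphoglycerate kinase, stood at -0.27 and GAPN at 0.11.

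For the fructan-degrading exohydrolases the probe sets disagreed. The gene 1-FEH read -0.49 and -0.20 in drought leaves, against -0.77 and -0.78 in control leaves, a change of 0.44 (SE 0.16, limma adjusted p = 0.304). The probe set that stands for 6-FEH differed by -0.29, with 0.063 and -0.063 in drought leaves, against 0.20 and 0.37 in control leaves. A second probe set of 6-FEH, Ta.9641.1.A1_a_at, read -0.30 and 0.11 in drought leaves, against -2.91 and -1.67 in control leaves, a change of 2.20 (limma adjusted p = 0.186). Another stood at 1.93 (limma adjusted p = 0.140), so the gene has no single direction. These 2 probe sets were picked out with their values known. Glc1 was higher by 0.59, and GBSS-I, which makes amylose, stood at -0.21.

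Genes known from the grain formed the largest group, 18 storage proteins and inhibitors, of which 13 were below 0 and the median was -0.17. Both drought arrays lay below both control arrays for 7 of the 18, against 22.4% of all probe sets, and above them for 0, against 21%. The group was put together after values were seen, so no test was made of these shares. WMAI-1, an inhibitor of alpha-amylase, read -0.46 and -0.040 in drought leaves, against 0.52 and 0.17 in control leaves, a change of -0.59 (SE 0.19, limma adjusted p = 0.261). The ATI genes (inhibitors of alpha-amylase and trypsin) LOC543286 and LOC543281 stood at -0.56 and -0.45, the avenin-like ALP at -0.46, the gliadin GAG56D at -0.43 and Serpin-Z1C, a protease inhibitor, at -0.29. The mean over the group was 0.048 and 0.037 on the drought arrays, against 0.35 and 0.084 on the control arrays, so control replicate 1 was the high one. WL711 control replicate 1 is also 1 of the 3 arrays with low hybridisation controls. Without it LOC543281 stood at -0.095 and ALP at -0.22. The other grain genes named here stayed lower in drought with any 1 array left out. Their smallest decreases were -0.38 for WMAI-1, -0.39 for LOC543286, -0.31 for GAG56D and -0.15 for Serpin-Z1C.

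Genes of dividing cells, tubulins and histones with profilin and an HMG protein, had a median of 0.0091 over 13 genes. The histone gene wcH2B-8 read 0.058 and 0.27 in drought leaves, against 0.73 and 0.47 in control leaves, a change of -0.43 (SE 0.18, limma adjusted p = 0.352). Of the 13 genes, 7 were above 0, among them the histone gene H2A-3 at 0.29. The tubulins tubb1 at 0.45, tubb2 at 0.42 and tubb3 at 0.36 were also above 0, each with overlapping arrays. For these tubulins control replicate 1 was the lowest WL711 array, at -1.09, -1.08 and -0.84. Control replicate 2 read 0.11, 0.46 and -0.0085. H2A-2 stood at -0.47, and at -0.078 without drought replicate 1. The tubulin gene TUBA stood at -0.41 with 1 probe set and at 0.36 with the other, each without overlap, so it has no single direction. Antioxidant enzymes had a median of -0.070 over 6 genes, with the peroxiredoxins TaPrx1 at -0.36 and PER1 at -0.32 (0.28 with its other probe set), phytochelatin synthase TaPCS1 at -0.22 and catalase CAT1 at 0.12. The proton pump gene ha1 stood at 0.10, the malate channel gene TaALMT1 at -0.29 (-0.076 without control replicate 1), COMT1, of lignin synthesis, at 0.15 and XTH, which remodels xyloglucan, at -0.083. Also among the genes with separated arrays, la-17 stood at -0.34. The genes cys1 and DMAS1 stood at -0.33 and 0.11.

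The gene for PR5, a thaumatin-like defence protein, was high on 1 of the 4 WL711 arrays. It read 4.59 and -1.06 in drought leaves, against 0.21 and -1.05 in control leaves. Drought replicate 1 stood far above the other 3 arrays, while drought replicate 2 was level with the lowest control. The change was 2.18 (SE 1.42, limma adjusted p = 0.524), and it was -0.64 without drought replicate 1. In C306 both drought arrays were high, at 1.90 and 1.80, against -0.21 and -1.15 in control leaves. The change there was 2.53 (limma adjusted p = 0.810). Of the other defence genes, WGA2, a lectin, was lower on both drought arrays, at -0.36 (limma adjusted p = 0.555). XIP-I stood at 0.27, TaGlu1a at 0.077, the thionin THI1.3 at 0.062 and the lipid transfer protein LTP3 at -0.29 (0.24 with its other probe set).

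PR5 was 1 of 40 probe sets on which drought replicate 1 lay at least 2 above each of the other WL711 arrays. No probe set lay as far below on that array. Drought replicate 2 had 3 such probe sets above and 9 below, control replicate 1 had 3 and 12, and control replicate 2 had 2 and 13. The 40 were chosen by this gap, and their median was 3.17 and -0.54 on the drought arrays, against -0.071 and -0.46 on the control arrays. Their median change was 1.73 with all arrays and -0.26 without drought replicate 1, and none of them passed. A gene was given for 9 of them, which stand for 7 genes: PR5, LOC543422 with 3 probe sets, LOC543317, LOC543438, LOC542887, LOC543330 and LOC543492.

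The choice did not use the C306 arrays. There the 40 had medians of 2.36 and 0.42 on the drought arrays, against -0.14 and -0.16 on the control arrays. On 36 of the 40, C306 drought replicate 1 was the highest of the 4 C306 arrays, as it was on 22.8% of all probe sets, and on 26 it was so by at least 1, against 0.433% of all probe sets. In each cultivar the median of the 40 was highest on drought replicate 1, and no test was made of that pattern. The 40 were chosen for a large gap between arrays, and some of them read the same gene. The median absolute change in C306 over all probe sets was 0.128, so all probe sets are not a like group for these shares.

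**Figure D4:**
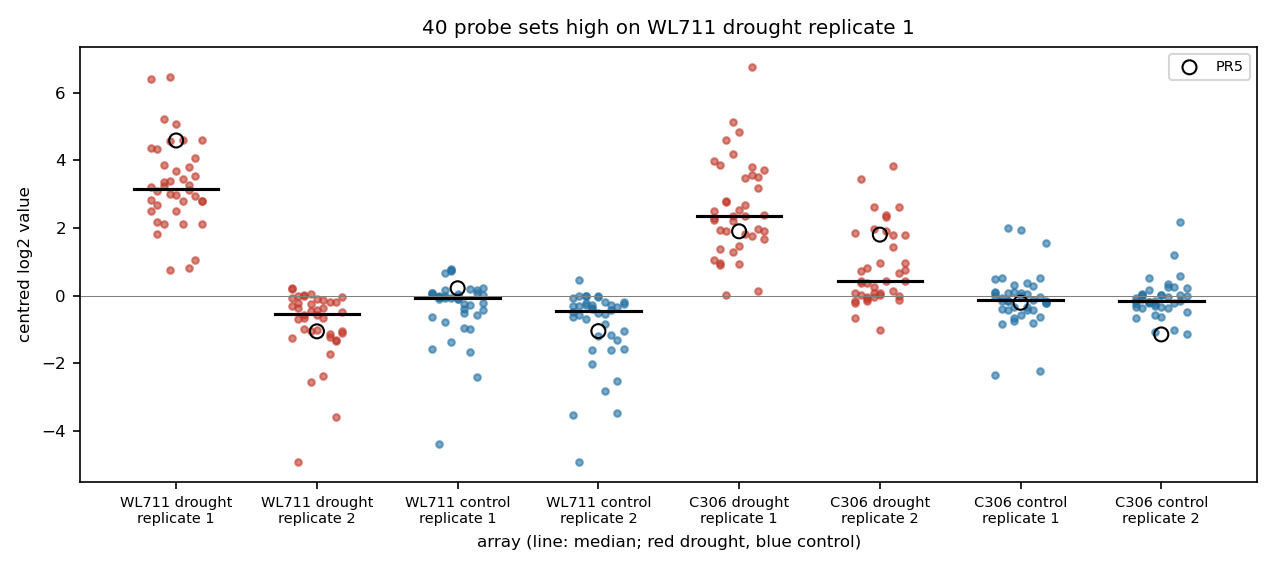
Centred log2 values (vertical axis) of the 40 probe sets that lay at least 2 above the other WL711 arrays on drought replicate 1, by array (horizontal axis), with a line at the median and an open circle for PR5. The medians are 3.17 on WL711 drought replicate 1 and 2.36 on C306 drought replicate 1, and lie between -0.54 and 0.42 on the other arrays.

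The number of transcripts past the threshold depended on single arrays. Without control replicate 1, limma called 0 probe sets, with 6049 at an unadjusted p under 0.05 and a lowest adjusted p of 0.0693. Without control replicate 2 it called 49, of which 10 were among the 22. Without drought replicate 1 it called 14, of which 3 were among the 22, and without drought replicate 2 it called 2, of which 1 was. A fit with array weights gave each drought array a weight of 1.17 and each control array 0.569, and it called 1 probe set.

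**Figure D5:**
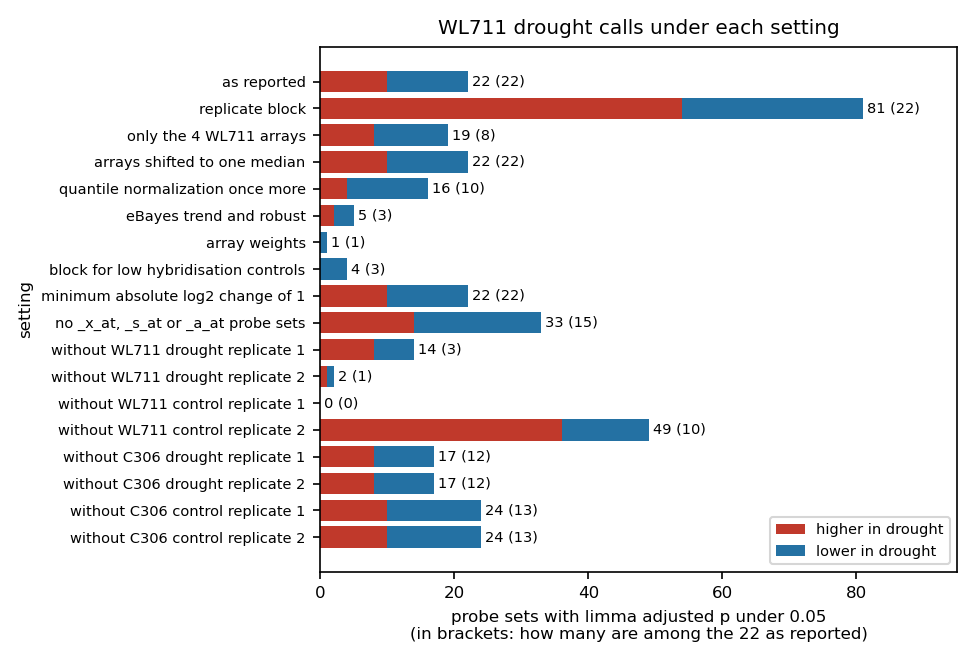
Number of probe sets with a limma adjusted p under 0.05 for drought against control in WL711 (horizontal axis) under each setting (rows), red for higher in drought and blue for lower, with the number shared with the 22 in brackets. The counts run from 0 without control replicate 1 to 81 with the replicate number as a block.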

How the data were processed

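Leaf RNA of 8 samples was hybridised to Affymetrix wheat arrays. The deposited log2 values came from RMA, per the submitters' processing notes; its version is not given in the sources used here. Every probe set had a median of 0 across the 8 arrays, so the values had also been centred per probe set. Centring cancels in every difference between arrays. The scale rests on those notes, since scanner values were not used here.

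The table held 61290 probe sets, and 111 Affymetrix controls were left out. In the platform annotation 1273 probe sets had 1 gene each (771 genes, 770 of them in the RefSeq gene table of IWGSC CS RefSeq v2.1, used for names) and 59906 had none. For a gene with several probe sets, a plain one was taken first.

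limma 3.58.1 in R 4.3.3 was fitted over all 8 arrays with 4 group means (4 residual and 4.63 prior degrees of freedom) and eBayes. Benjamini-Hochberg adjustment ran over 61179 probe sets with a threshold of 0.05. SE is limma's moderated standard error. The fit was run on simulated data with independent noise, to check that on average it returned the changes put in. That check does not test the calls made on these arrays. With 2 arrays per group, their number limits the precision.

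Named are the annotated genes past the threshold, the 12 highest and 12 lowest named genes and the 4 highest and 4 lowest LOC genes by moderated t without overlap of the arrays, leading members of 19 gene lists (18 with members, 64 named genes in all, 0 passed), and the 2 most raised and 2 most lowered probe sets without a gene. The members and lists were chosen with earlier results of these data known, and the role groups in the text were put together after values were seen. The alternatives tried were a replicate block, the 4 WL711 arrays alone, 2 normalizations, other eBayes settings, array weights, a block for the 3 arrays with low hybridisation controls, a minimum change, probe set types and leaving out each array.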

Additional observations from a re-analysis of the deposited data

Results flagged for a closer look

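The drought effect differed between WL711 and C306 for 25 probe sets (limma, adjusted p under 0.05 over all probe sets). The values that follow are the WL711 effect minus the C306 effect on the log2 scale. Among genes, LOC543440 stood at 2.24, LOC543248 at -4.14 and LOC543150 at -6.70.

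Of the probe sets without a gene that passed in WL711, Ta.5139.1.S1_at stood at 3.63 and Ta.13988.1.S1_at at 2.22, the WL711 effect being the higher. The lower WL711 effects were -2.41 for Ta.24770.1.S1_at, -2.66 for Ta.23397.1.S1_x_at, -2.67 for Ta.2825.1.S1_a_at and -3.52 for Ta.3157.1.S1_at. They reached -3.79 for Ta.24693.1.A1_at, -3.84 for Ta.10581.1.A1_at, -3.94 for Ta.19941.1.S1_at and -4.91 for Ta.17978.1.S1_at.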

How the results depend on the processing

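For drought against control in WL711, limma called 22 probe sets as reported, 81 with the replicate number as a replicate block, 5 with trended and robust eBayes, 1 with array weights and 4 with a block for the 3 arrays with low hybridisation controls. Leaving out 1 array gave 0 to 49. Same-numbered drought and control arrays had deviations with r = 0.012 over probe sets, and the other pairs of groups lay between -0.093 and 0.112, the highest being the drought arrays of both cultivars. The numbers were therefore taken as names in the fit. A correlation over all probe sets cannot show a pattern held by a subset, such as the 40 probe sets high on drought replicate 1. With the replicate block all 22 calls were kept. For the difference between the cultivars, 25 were called as reported, 14 without _x_at, _s_at and _a_at probe sets, and 2 to 199 when 1 array was left out. Of 947 recomputed values of 60 genes, 907 kept direction and side of the threshold. LOC543440 lost its call in 13, LOC543150 gained one in 6 and LOC543236 in 3. These counts include settings that gave the same WL711 result, since leaving out either replicate of a C306 group did so. Signs turned in 18 values of 11 genes, each a change that had not passed: to -0.066 for hsp16.9A with the hybridisation block, and under quantile normalization to -0.12 for XIP-I, 0.014 for XTH and -0.052 for TaGlu1a. With 1 array left out the ranges were -0.74 to 0.10 (PER1), -0.64 to 5.01 (PR5), -0.23 to 0.76 (XIP-I), -0.35 to 0.48 (THI1.3), -0.30 to 0.14 (XTH), -0.093 to 0.39 (Ta20ox1A), -0.67 to 0.82 (TaGlu1a), -0.63 to 0.061 (LTP3), -0.44 to 0.020 (GBSS-I) and -0.034 to 0.070 (APT1). Over the 60 genes, leaving out 1 array moved the change by over 1.5 times or turned its sign in 31, with a range of -0.80 to -0.095 for the ATI gene LOC543281. The causes were not tested.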

Other observations

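The array carries 3′ and 5′ probe sets for 7 wheat transcripts. Besides actin, the 3′ minus 5′ difference was lower on both drought arrays for sucrose synthase, at -0.11 and -0.34 in drought against 0.048 and 0.039 in control, and for ubiquitin, at -0.046 and -0.012 in drought against 0.14 and 0.13 in control. For CYP86 it was higher, at -0.11 and 0.31 in drought against -0.36 and -0.31 in control. For EF1a, GAPDH and G6PDH the groups overlapped.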
